A study of Mus musculus with 4 samples.

Results

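Natural killer (NK) cells with high granzyme C, D and E were chosen by their transcripts from a pair of single-cell libraries made from tumour-infiltrating lymphocytes of mice. A cell barcode was taken as an NK cell when it had at least 200 detected genes, at most 10% mitochondrial UMIs, at least 1 UMI of Ncr1 or Klrb1c, no UMI of Cd79a or Cd3d, and fewer than 2 UMIs of Top2a. A UMI, or unique molecular identifier, marks 1 captured transcript. The NK cells with 5 or more summed UMIs of Gzmc, Gzmd and Gzme form the high class described here, and those with fewer form the low class. The high class held 180 of 388 NK cells and of 1679 barcodes that passed the filters on genes and mitochondrial UMIs, with 65 in the control library and 115 in the knockout library. The low class held 67 and 141 cells.

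Recipients were female C57BL/6 mice, 12 to 16 weeks of age, which received subcutaneous MC38 cells (a mouse colon carcinoma line) and whose tumours were taken on day 18. Control recipients were Prdm1 f/f, and knockout recipients were Prdm1 f/f CD19cre, so both genotypes carried the floxed Prdm1 alleles and the cre, which is driven in B cells, was in the knockout only. Live B220+ and CD138+ cells from 11 tumour-bearing recipients per genotype were sorted and combined into 1 library per genotype. NK cells were therefore not the cells named by the sort, and a genotype here is 1 library of pooled animals: differences between genotypes have no replicate check, no p-value is given, and intervals cover counting error only.

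Granzymes are serine proteases that cytotoxic lymphocytes store in granules with the pore-forming protein perforin (Prf1) and release onto target cells. Granzymes A and B are the granzymes best known from mouse NK cells. Granzymes C, D, E, F and G are a rodent group encoded next to granzyme B, and are known from strongly activated or cytokine-stimulated cytotoxic lymphocytes. NK cells in tissues are commonly told from the related group 1 innate lymphoid cells (ILC1) by Eomes and the integrin alpha 2 chain Itga2, whereas ILC1 carry the integrin alpha 1 chain Itga1.

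The genes of the group lie in 1 cluster on mouse chromosome 14 (GRCm38), all on the minus strand: Gzme at chr14:56117619-56120625, Gzmd at chr14:56129556-56132603, Gzmg at chr14:56156581-56159579, Gzmn at chr14:56165786-56174612, Gzmf at chr14:56205263-56211407, Gzmc at chr14:56231397-56241647 and Gzmb at chr14:56258836-56262334. Their upstream sequences are shown because Gzmc, Gzmd, Gzme, Gzmf and Gzmg were each higher in the high class, though not in all of its cells, whereas Gzmb was near even and Gzmn had no UMI in any NK cell. The 250 bases before the start site are printed from RefSeq (GRCm38.p6), and capitals mark stretches of at least 10 bases found in all 5. The start sites listed for Gzmc, Gzmd and Gzmn lie inside the annotated intervals of these genes.

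Gzmc, chr14:56234658-56234907, minus strand: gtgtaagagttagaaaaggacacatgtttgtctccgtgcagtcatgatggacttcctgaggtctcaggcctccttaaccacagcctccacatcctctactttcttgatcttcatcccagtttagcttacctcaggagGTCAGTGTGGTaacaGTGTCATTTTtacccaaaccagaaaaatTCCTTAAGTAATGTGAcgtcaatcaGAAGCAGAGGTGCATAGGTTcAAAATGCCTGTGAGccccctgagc
Gzmd, chr14:56132594-56132843, minus strand: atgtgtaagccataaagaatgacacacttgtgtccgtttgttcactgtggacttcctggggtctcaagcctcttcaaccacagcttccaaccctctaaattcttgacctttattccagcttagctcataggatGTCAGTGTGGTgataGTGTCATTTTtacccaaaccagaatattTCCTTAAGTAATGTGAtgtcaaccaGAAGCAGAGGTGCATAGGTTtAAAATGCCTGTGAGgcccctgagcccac
Gzme, chr14:56120626-56120875, minus strand: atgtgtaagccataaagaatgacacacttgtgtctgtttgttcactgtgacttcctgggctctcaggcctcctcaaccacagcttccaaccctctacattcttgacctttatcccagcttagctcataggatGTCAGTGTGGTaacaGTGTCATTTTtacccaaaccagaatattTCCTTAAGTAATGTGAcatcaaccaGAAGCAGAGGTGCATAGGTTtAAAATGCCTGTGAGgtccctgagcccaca
Gzmf, chr14:56211408-56211657, minus strand: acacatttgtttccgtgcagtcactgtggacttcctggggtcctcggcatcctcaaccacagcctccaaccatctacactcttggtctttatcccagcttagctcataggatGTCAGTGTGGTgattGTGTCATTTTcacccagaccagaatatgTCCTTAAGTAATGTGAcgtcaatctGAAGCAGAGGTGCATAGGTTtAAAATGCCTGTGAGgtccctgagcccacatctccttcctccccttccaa
Gzmg, chr14:56159580-56159829, minus strand: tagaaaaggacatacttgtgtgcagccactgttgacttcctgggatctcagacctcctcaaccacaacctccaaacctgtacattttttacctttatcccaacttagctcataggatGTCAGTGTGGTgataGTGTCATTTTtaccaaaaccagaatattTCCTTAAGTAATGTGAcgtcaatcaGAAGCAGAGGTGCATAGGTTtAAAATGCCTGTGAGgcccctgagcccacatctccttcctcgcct

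The shared stretches covered 71 of the 250 bases in each of the 5 upstream sequences and lay toward the start site. Identity between pairs of the 5, over the aligned length, ranged from 71.5% for Gzmc and Gzmf to 94.8% for Gzmd and Gzme. The 11 pairs that included Gzmb or Gzmn had 47.3 to 54.5%. The letters of the cyclic AMP response element, TGACGTCA, occurred 1 time each upstream of Gzmc, Gzmf and Gzmg and not upstream of Gzmd or Gzme; 1.55% of 32851 upstream sequences of this length hold them on either strand. The Runx letters TGTGGT occurred 2 times in each of the 5 and in Gzmb (14.0% of all), and the AP-1 letters TGANTCA only in Gzmb among the 7 (6.75% of all). The letters searched for STAT (TTCNNNGAA, 7.02% of all), T-box (AGGTGTGA, 1.12%) and ETS (CCGGAAGT, 2.88%) factors were not found in any of the 7. These are letter matches in 1 window.

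The 2 libraries held 816 and 897 barcodes and 6976374 and 5463434 UMIs in control and knockout. High cells were deeper than low cells in both: the median was 14689 UMIs in control and 10913 in knockout high cells, against 5646 and 4197 in low cells. The libraries shared 3 barcodes, and none of those was a high cell; 1 high cell was called a doublet, and no NK cell of either class had a B cell receptor contig. Of the genes fixed as marks of other cells, Cd79a, Ms4a1, Cd3d, Cd3e, Cd4, Cd8a and Cd5 were at 0 UMIs in all high cells; the first and the third of these were set to 0 by the rule. Other members of these lists were not at 0. The B cell list (7 genes, nearly all of its UMIs from Ighm) was at 159 and 207 CPM in control and knockout high cells against 112 and 177 CPM in low cells, where CPM is a UMI count scaled to 1000000 UMIs of the class. The T cell list (10 genes) was at 136 and 113 CPM against 128 and 174 CPM, and the tumour or epithelial list (5 genes, mostly Cdh1 and Epcam) at 15.4 and 36.0 CPM against 9.34 and 6.10 CPM. The part of these transcripts in the results was not tested. The summed macrophage or monocyte list (9 genes) was at 21.7 and 81.3 CPM in control and knockout high cells and at 325 and 42.7 CPM in low cells. In control low cells 1 cell held 135 of its 139 UMIs, and in knockout high cells 1 cell held 77 of 106. Cd3g, a CD3 chain gene, had 29 and 25 UMIs in high cells and 1 and 13 in low cells.

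The NK label held in part against its markers. All 12 listed NK genes had UMIs in both classes and both libraries, and their summed level was 13365 CPM in control and 14380 CPM in knockout high cells, against 21947 and 24744 CPM in low cells. A summed level is weighted toward the most abundant genes, so this difference is not by itself a measure of NK identity. The part in it of abundant effector genes such as Gzma, which was lower in high cells, was not tested. Ncr1 (NKp46) had a UMI in 65 of 65 control and 111 of 115 knockout high cells, which the rule partly fixes. Eomes, which the rule did not use, had a UMI in 53 control and 94 knockout high cells (81.5% and 81.7%), and its level was 176 and 182 CPM against 259 and 287 CPM in low cells. Itga1 was also present, in 31 control and 55 knockout high cells (47.7% and 47.8%), and 30 and 43 of these cells also had an Eomes UMI. The summed ILC1 list (7 genes, Itga1 included) was at 169 and 224 CPM in high cells against 39.7 and 74.7 CPM in low cells. Of its members, Cd200r1 was at 0, and Cxcr6 was at 0 in control and at 9 UMIs in knockout high cells. The cells are called here by their rule, high or low granzyme C/D/E NK cells.

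Gzmc was the main transcript of the rule. Each of the 65 control and 115 knockout high cells had Gzmc, from 5 UMIs to 3269 in control and 1829 in knockout, with medians of 238 and 182. It made up 85.4% and 84.4% of the summed UMIs of the 3 genes. In 40 control and 62 knockout cells it was the only 1 of the 3 detected. Gzmd and Gzme occurred together in 20 and 46 cells, Gzmd without Gzme in 5 and 4, and Gzme without Gzmd in 0 and 3. The highest cell had 618 and 925 UMIs of Gzmd, and 829 and 573 of Gzme. Gzmd and Gzme UMIs went together across high cells (Spearman's rho 0.90 in control, 0.94 in knockout, over 65 and 115 cells that share a library and differ in depth). Of these cells, 40 and 62 had 0 UMIs of both, so shared zeros are part of the rho. Both genes were used by the rule and are near copies, and how their shared reads were counted is not given.

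The D and E transcripts were concentrated in few cells. The top 5 cells held 71.5% of all Gzmd and Gzme UMIs of high cells in control and 57.7% in knockout, against 40.0% and 21.4% for Gzmc. Gzmc itself was higher where Gzmd or Gzme was present: its median was 561 and 312 UMIs in cells with either and 60 and 85 UMIs in cells with neither, with median depths of 20731 and 12605 against 11984 and 10338 UMIs. The part of depth in this difference was not tested; scaled for depth, Gzmc stood at 37928 CPM in control cells with Gzmd or Gzme against 13301 without, and at 35613 against 13775 CPM in knockout.

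**Figure D1:**
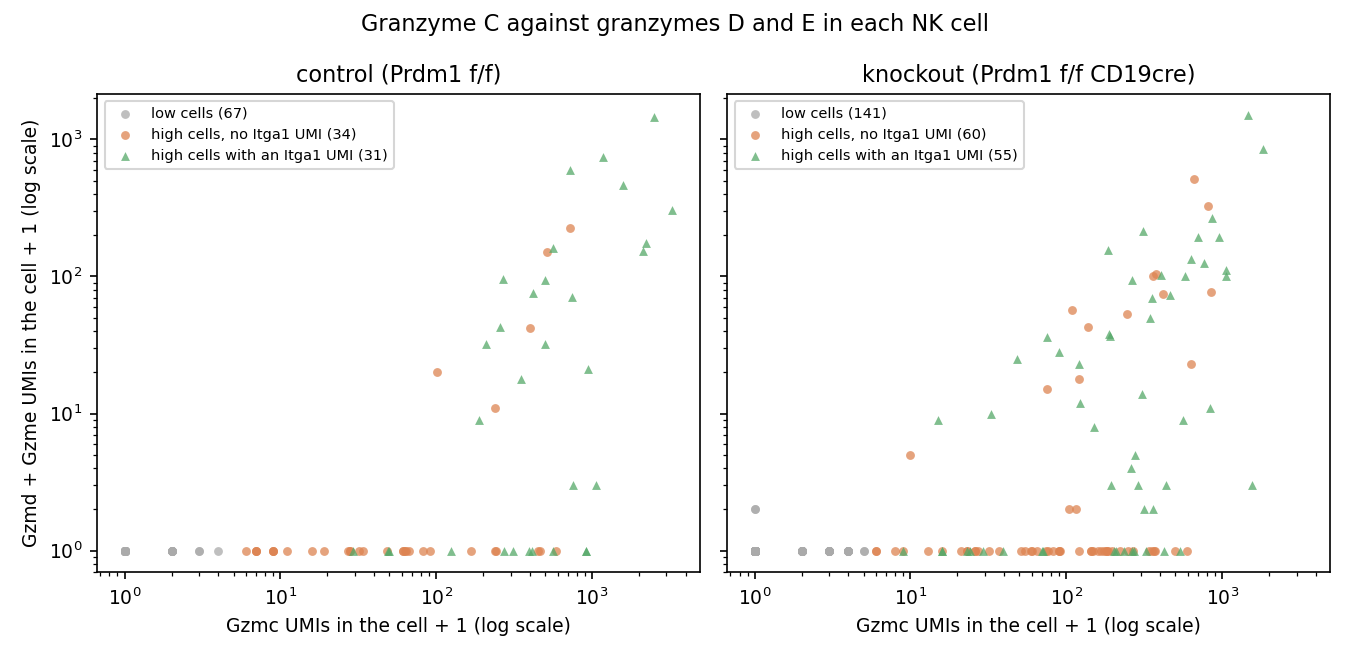
Each point is 1 NK cell, with its Gzmc UMIs plus 1 on the x axis and its Gzmd and Gzme UMIs plus 1 on the y axis, both on log scales, in control (left) and knockout (right). Grey circles are low cells, orange circles high cells without an Itga1 UMI and green triangles high cells with one; cells with Gzmd or Gzme lie mostly to the right, with median Gzmc UMIs of 561 in control and 312 in knockout.

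The threshold of 5 UMIs fell in a thin part of the distribution. The summed UMIs of high cells had medians of 242 in control and 182 in knockout, and reached 3950 and 2966. Just inside, sums of 5 to 8 were found in 7 control and 5 knockout cells; just outside, sums of 3 or 4 were found in 1 and 10 cells. A sum of 0 was found in 56 of 67 control and 98 of 141 knockout low cells. Gzmc was also seen outside NK cells: a UMI was found in 2.8% of control and 23.7% of knockout Cd79a cells, which should lack it, at median depths of 3314 and 2780 UMIs, and in 16.4% and 29.1% of low NK cells. These Cd79a cells had at least 2 UMIs of Cd79a and none of Ncr1 or Klrb1c. Their highest sum of the 3 genes was 3 in control and 98 in knockout. Counted instead over all kept barcodes with any Cd79a UMI, a sum of 5 or more was found in 0 control and 7 knockout barcodes. The source of these UMIs was not tested. After every cell was thinned to 1500 UMIs these shares were 0.4% and 12.1% of Cd79a cells, 4.5% and 18.9% of low NK cells, and 93.8% and 98.3% of high NK cells. Low cells were chosen for a sum under 5 and high cells for 5 or more. The gap between their shares was thus partly set by the rule. The source of the Gzmc UMIs in low cells was not tested.

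In the control library 65 of 132 NK cells were high cells (49.2%, exact 95% interval 40.4 to 58.1%), and in the knockout library 115 of 256 (44.9%, 38.7 to 51.2%). The intervals overlapped. With all cells thinned to 1500 UMIs and 19 shallower knockout low cells left out, the shares were 38.6% (51 of 132) and 43.5% (103 of 237), so the order of the genotypes changed with the depth used. Among all barcodes kept, the high share was 8.07% in control (6.29 to 10.2%) and 13.2% in knockout (11.0 to 15.6%), a share that also moves with every other cell type in the sort.

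Other cells of the libraries also passed the sum of 5 without being members: 44 control and 58 knockout barcodes. Of these, 41 and 51 had Cd3d or at least 2 Top2a UMIs, and 16 and 24 had an NK marker and were left out for Top2a alone. The rule thus left out cells with marks of division. The members held 56.8% and 62.2% of all Gzmc, Gzmd and Gzme UMIs of the kept barcodes.

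Across genes, the high class was set beside the low class in each library. The rule made this contrast, so the ratios are descriptions with no test, and the 2 libraries are not replicates of a condition. Among 6259 genes with at least 20 UMIs over the 2 classes in each library, 104 (1.66%) were at least 2-fold higher in high cells in both libraries and 183 (2.92%) were at most 0.5-fold. In single libraries 311 and 204 genes were higher and 579 and 391 lower, so the shared genes were 33.4% and 51.0% of the higher and 31.6% and 46.8% of the lower genes of control and knockout. Depth moved with the class: with cells of 4000 to 15000 UMIs only, 25 genes were higher and 58 lower, and 21 of the 33 higher and 49 of the 138 lower genes that could still be measured were retained. With the cells holding Itga1 left out of both classes, 28 were higher, among them 25 of 38 measurable, and 136 were lower.

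**Figure D2:**
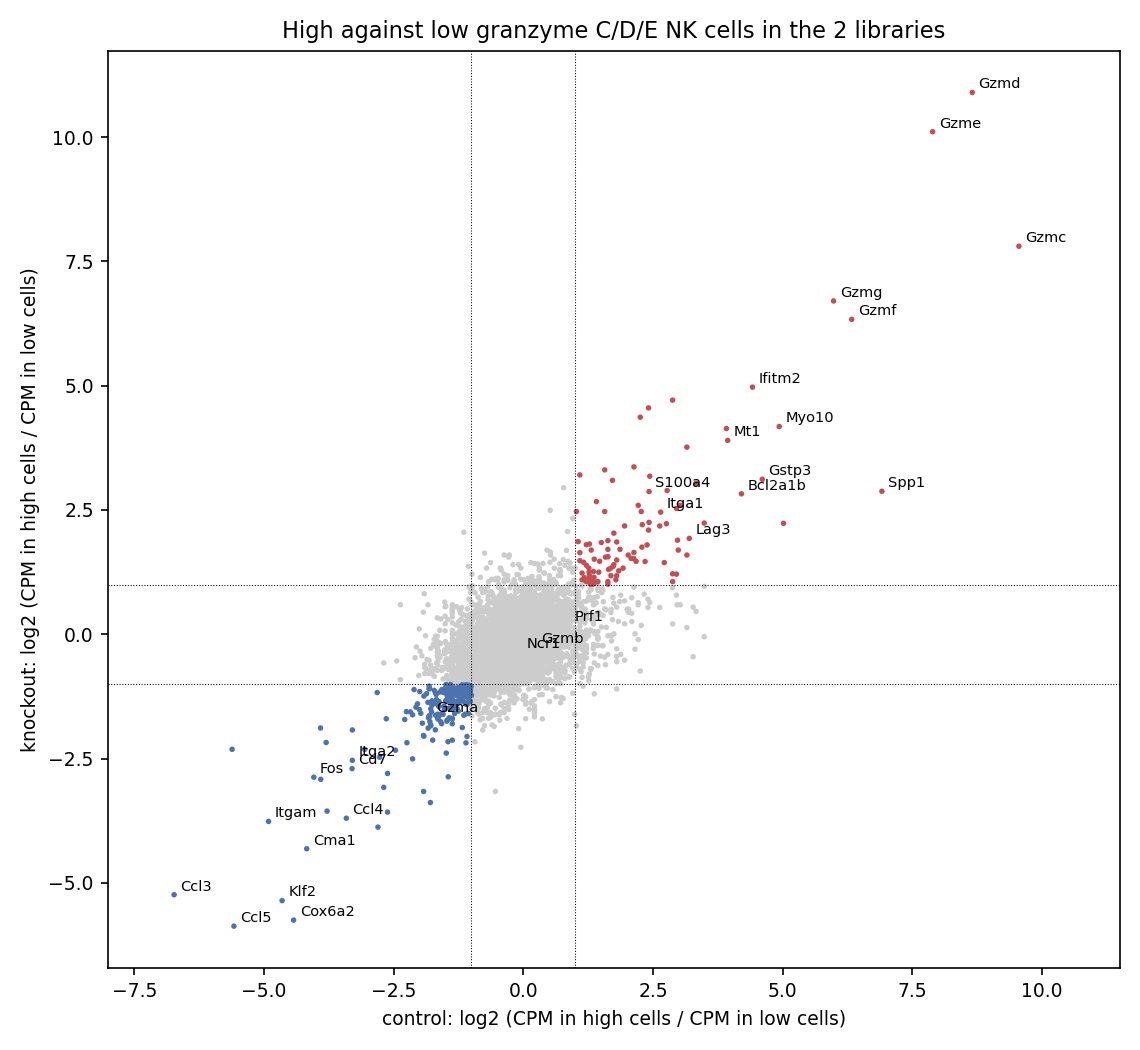
Each point is 1 of 6259 genes, with the log2 ratio of CPM in high over low cells in control (x axis) and knockout (y axis); dotted lines mark 2-fold, red points are higher and blue points lower past 2-fold in both libraries, and genes with 0 UMIs in 1 class are drawn at the bound set by 3 UMIs. The granzyme genes lie at the upper right and Ccl5, Ccl3, Klf2 and Cox6a2 at the lower left, whereas Gzmb, Prf1 and Ncr1 lie near the centre.

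The granzymes did not move as a family. Gzmc was at 26358 CPM in control and 24881 CPM in knockout high cells, against 35.0 and 111 CPM in low cells. Gzmd was at 2826 and 2908 CPM against 0 and 1 UMI in low cells, and Gzme at 1664 and 1682 CPM, also against 0 and 1 UMI. These 3 were used by the rule. Gzmf and Gzmg, which it did not use, were also higher: Gzmg had 490 and 622 UMIs in 10 and 14 high cells and none in low cells, at least 63.2-fold and 104-fold higher. Of the cells with Gzmg, 10 of 10 and 13 of 14 also had Gzmd or Gzme. Gzmf had 624 and 481 UMIs in 5 and 9 high cells, against 0 and 3 UMIs; 1 control cell held 96.5% of them, and without the top cell the control value was at least 2.88-fold. Gzmc, Gzmd, Gzme, Gzmf and Gzmg are near copies of each other, and how reads shared by them were counted is not given in the sources used here, so the split among them is uncertain.

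Granzyme A went the other way. Gzma had a median of 15 UMIs in control high cells (0 to 422) and of 53 in low cells (0 to 179), and of 8 (0 to 408) and 40 (0 to 213) in knockout. Its level was 2839 against 9912 CPM in control, a ratio of 0.286 (0.273 to 0.300), and 3299 against 10377 CPM in knockout, a ratio of 0.318 (0.306 to 0.330). The classes overlapped: 48 of 65 and 81 of 115 high cells still had Gzma. Gzmb was close to even and differed in direction, with a ratio of 1.17 (1.10 to 1.24) in control and 0.839 (0.802 to 0.877) in knockout. With cells of 4000 to 15000 UMIs only, both Gzmb ratios were under 1 (0.926, 0.856 to 1.0005, and 0.880, 0.832 to 0.930). Prf1 was at 1220 against 668 CPM in control (1.83, 1.61 to 2.08) and 1385 against 1225 CPM in knockout (1.13, 1.04 to 1.23). Gzmk had 4 and 5 UMIs in high cells and 13 and 34 in low cells.

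Of the 17 measured granule genes in the fixed list, 2 (Gzmf, Gzmg) were higher in both libraries and 2 (Gzma and the death ligand gene Fasl) lower, with list medians of 0.19 and 0.16 on the log2 scale in control and knockout; over all genes the medians were -0.16 and -0.18. Fasl was at 90.4 against 250 CPM (0.362) and 98.1 against 229 CPM (0.429). Nkg7, a granule membrane protein gene, had ratios of 0.494 and 0.590, and Srgn, the granule proteoglycan serglycin, of 1.14 and 1.11. Of 5 measured serpin genes, whose products inhibit granzymes and related proteases, only Serpinb6a was called: 100.3 against 18.7 CPM (5.37, 2.63 to 12.7) and 94.3 against 19.8 CPM (4.76, 2.68 to 9.19). Serpinb9, the granzyme B inhibitor, had ratios of 0.796 and 0.781.

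Besides granzymes, the highest ratios belonged to genes of diverse function. Spp1, which encodes the secreted phosphoprotein osteopontin, was at 1690 CPM in control high cells and 14.0 CPM in low cells (121, 55.3 to 329), and at 1813 against 247 CPM in knockout (7.34, 6.26 to 8.67). It had a UMI in 51 of 65 and 85 of 115 high cells and in 2 of 67 and 19 of 141 low cells. In knockout low cells 1 cell held 37.7% of the Spp1 UMIs, and without the top cell of each class the ratio was 10.2. Ifitm2, of the interferon-induced transmembrane family that restricts viruses, was at 949 against 44.4 CPM (21.4, 13.6 to 35.7) and 573 against 18.3 CPM (31.4, 17.8 to 61.0). All 19 control low UMIs of Ifitm2 came from 1 cell; without the top cell of each class the control value was at least 119-fold. Ifitm2 was present in 31 and 51 high cells, so roughly as many high cells lacked it as held it.

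Other genes ranked high in both libraries were less abundant. Mt1, a metallothionein gene, had 119 and 89 UMIs in high cells against 3 and 3 in low cells (ratios 15.4, 5.13 to 75.5, and 14.9, 4.94 to 73.7). Bcl2a1b, of the anti-apoptotic Bcl2 family and with near copies in the genome, had 143 and 155 UMIs against 3 and 11 (18.4 and 7.09). Myo10, an unconventional myosin, had 79 and 108 UMIs in 23 and 49 cells against 1 and 3 (30.6, 5.33 to 1224, and 18.1, 6.03 to 89.2). Gstp3, a glutathione transferase, had 63 and 69 against 1 and 4, and Nrgn, neurogranin, 317 and 425 against 23 and 50 (5.33 and 4.28). S100a4, a calcium-binding protein gene, was at 401 against 74.7 CPM in control (5.37, 3.75 to 7.95) and 357 against 48.8 CPM in knockout (7.31, 5.11 to 10.8), and the control ratio was 30.3 without the top cell of each class. The control low class, which held those cells, was also where the macrophage or monocyte list stood at 325 CPM, with 135 of its 139 UMIs in 1 cell. The part of these transcripts in the control ratios of Ifitm2 and S100a4 was not tested beyond the values without the top cell.

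The ranking was completed by less abundant genes. Igflr1 (57 and 52 UMIs against 0 and 1), Ccdc184 (78 and 98 against 0 and 6), Alox5, the gene of arachidonate 5-lipoxygenase (37 and 41 against 0 and 1), Tnfsf11, which encodes the cytokine RANKL (53 and 59 against 0 and 4), and Birc5, which encodes survivin (42 and 54 against 0 and 3), were found in 11 to 28 high cells each. Ccl1, a chemokine gene, had 251 and 28 UMIs in only 5 and 6 high cells and none in low cells.

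Itga1 and other residency genes were higher in high cells, although their list was mixed. Of 9 measured genes of tissue residency and ILC1, 3 were higher (Itga1, Sema6d, Inpp4b) and 1 lower (Cd7), with list medians of 0.84 and 0.23 in control and knockout. Itga1 was at 73.2 against 11.7 CPM in control (6.27, 2.58 to 19.8) and 92.0 against 16.8 CPM in knockout (5.49, 2.96 to 11.3). Sema6d had 26 and 57 UMIs against 0 and 7, and Inpp4b, a lipid phosphatase gene, 45 and 56 against 5 and 10. Cd7, a surface glycoprotein gene of NK and T cells, was at 44.3 against 437 CPM (0.101, 0.072 to 0.140) and 56.0 against 364 CPM (0.154, 0.117 to 0.200). High cells with an Itga1 UMI had median sums of 559 and 288 granzyme C/D/E UMIs, against 60 and 128 in those without, at median depths of 19291 and 12667 against 10204 and 10033 UMIs.

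Several genes of NK maturation and circulation were lower. Of 8 measured and reported here, 4 were lower (Itgam, Cd27, Cma1, Klf2) and 1 higher (Kit, the stem cell factor receptor gene), with list medians of -0.97 and -0.67. Klf2, a factor that sustains genes of lymphocyte circulation, had 15 and 10 UMIs in high cells against 146 and 206 in low cells (0.040, 0.022 to 0.068, and 0.024, 0.012 to 0.046). Itgam (CD11b), found on mature NK cells, had 3 and 6 UMIs against 35 and 41 (0.033 and 0.074). Cma1, a chymase gene, had no UMI in any high cell and 21 and 30 in low cells, at most 0.0553-fold and 0.0503-fold. Both immature (Cd27, 0.370 and 0.482) and mature (Itgam) markers were thus among the lower genes.

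Homing receptors and integrins followed the same direction: of 11 measured and reported here, 5 were lower (Cxcr3, Itga4, Itgb7, Itgb2, Itga2) and none higher, with list medians of -0.65 and -0.69. Itga2 (CD49b), the integrin chain found on NK cells, had 5 and 12 UMIs in high cells against 19 and 35 in low cells (0.102, 0.030 to 0.282, and 0.172, 0.082 to 0.340). Itgb2, the beta chain that pairs with Itgam, was at 0.390 and 0.372. Ccr2, a chemokine receptor gene, stood at 0.926 and 1.32.

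A few chemokine and cytokine genes were much lower in high cells, while the list as a whole was divided, with 5 of 11 measured genes over 1 and 6 under 1 in both libraries and medians of -0.18 and -0.24. Over all genes, 1354 of 6259 were over 1 and 2941 under 1 in both libraries, with medians of -0.16 and -0.18. Ccl5, a chemokine gene that resting NK cells already transcribe, had a median of 0 UMIs in high cells (highest 61 and 52) and of 23 and 25 in low cells (highest 284 and 266). Its level was 194 against 9277 CPM in control (0.021, 0.018 to 0.024) and 163 against 9510 CPM in knockout (0.017, 0.015 to 0.020). A Ccl5 UMI was found in 16 of 65 and 31 of 115 high cells and in 64 of 67 and 117 of 141 low cells. Ccl3 (3 and 7 UMIs against 123 and 133) and Ccl4 (66.9 against 712 CPM and 57.5 against 747 CPM), which encode chemokines of the same family, and Ifng (56.9 against 219 CPM and 46.8 against 162 CPM), which encodes interferon gamma, were also lower. Of the list, 4 genes were lower and 2 higher: Ccl1, and the lymphotoxin gene Lta (49 and 25 UMIs against 5 and 5), whose control ratio of 3.79 turned to 0.820 with cells of 4000 to 15000 UMIs only. Xcl1, the gene of lymphotactin, was at 2575 against 1308 CPM (1.97) and 1709 against 1091 CPM (1.57).

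Of 18 measured activating receptor and adaptor genes 6 were lower (Klrb1c, Klrc2, Klri2, Cd226, Cd247, Klra4) and none higher, with list medians of -0.69 and -0.48. Over all genes 2.92% were lower. Klrb1c (NK1.1), which the rule used, was at 157 against 630 CPM (0.249) and 218 against 622 CPM (0.350), and 16 control and 32 knockout high cells had none. Klrk1 (NKG2D) was at 0.582 and 0.704, and the adaptors Tyrobp and Fcer1g at 0.841 and 0.911, and at 0.808 and 0.766. Cd247, the zeta chain gene, was at 0.493 and 0.393. The Klra genes are near copies of each other, and their split is uncertain.

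Of 15 measured inhibitory receptor genes 2 were higher and none lower (medians 0.33 and 0.19). Lag3, a checkpoint receptor gene, had 95 and 159 UMIs in 38 and 61 high cells against 4 and 21 UMIs in low cells (9.19, 3.47 to 34.4, and 3.81, 2.41 to 6.32). Fcrl6, an Fc receptor-like gene listed as a marker of these cells, had 33 and 62 UMIs in 18 and 30 high cells against 5 and 13 (2.55, 0.991 to 8.38, and 2.40, 1.31 to 4.76). Klrg1, listed with it, was in 20 and 32 high cells and was past 2-fold in control only (2.21, 1.44 to 3.53, against 1.24, 0.845 to 1.85). With cells of 4000 to 15000 UMIs only, Klrg1 was at 0.559 in control (0.252 to 1.18, from 12 and 22 UMIs) and 1.02 in knockout. Each of these 2 markers was found in a minority of the members. Tigit was at 0.514 and 0.429.

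Cytokine receptors were lower as a list (medians -0.54 and -0.62), with 6 of 19 measured genes lower in both libraries and 1 higher. Over all genes 2.92% were lower and 1.66% higher. The lower genes were receptors for interleukin 12 and 18 and interferon gamma (Il12rb2, Il18r1, Il18rap, Ifngr1) and the feedback inhibitors Socs1 and Socs3. Il12rb2 was at 36.1 against 163 CPM (0.221, 0.146 to 0.331) and 50.6 against 149 CPM (0.339, 0.244 to 0.468), and Ifngr1 at 384 against 1083 CPM (0.354) and 445 against 1120 CPM (0.397). The shared interleukin 2 and 15 receptor chains, Il2rb (0.856 and 0.769) and Il2rg (0.992 and 0.931), differed little. Il2ra, the alpha chain gene, had 34 and 27 UMIs against 2 and 5 (6.58, 1.69 to 56.5, and 2.72, 1.03 to 9.03), but thinned to 1500 UMIs its control ratio was 0.794.

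Transcription factor genes of NK cells and ILC1 were lower in 3 of 17 (Zeb2, Klf2, Nr4a2) and higher in none, with medians of -0.60 and -0.57. Zeb2, which acts late in NK maturation, was at 0.370 and 0.357. Tbx21 (T-bet) was at 0.537 and 0.552, Eomes at 0.680 and 0.634, and Id2 at 1.43 and 1.04. Immediate early genes, which cells induce within minutes of stimulation or handling, were lower in 8 of 13 and higher in none (medians -1.49 and -1.18). Dusp1 had 12 and 12 UMIs in high cells against 64 and 71 (0.073 and 0.085), Fos 11 and 16 against 70 and 59 (0.061 and 0.136), and Zfp36, an mRNA decay factor gene, 61 and 53 against 161 and 148 (0.147 and 0.180).

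Glycolysis and hypoxia genes were somewhat higher. Of 18 measured glycolysis and nutrient uptake genes, 2 were higher (the glucose transporter Slc2a3 and the enzyme Pgk1) and none lower, with 13 over 1 in both libraries and medians of 0.50 and 0.57; over all genes, 1354 of 6259 were over 1 in both. Pgk1 was at 427 against 175 CPM (2.44, 1.91 to 3.15) and 527 against 236 CPM (2.23, 1.87 to 2.68), and Ldha, lactate dehydrogenase A, at 1.69 and 1.46. Of 7 hypoxia response genes 2 were higher (Bnip3, Ankrd37), 6 were over 1 in both libraries, and the medians were 0.77 and 0.89. Bnip3 had 37 and 53 UMIs against 4 and 11 (3.58 and 2.42).

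Interferon-induced genes were lower in 4 of 19 (Ifit1, Ifit2, Ifit3, Irf1) and higher in 1, Ly6a, with medians of -0.69 and -0.77. Ly6a, the stem cell antigen 1 gene, had a UMI in 52 of 65 and 83 of 115 high cells against 13 of 67 and 35 of 141 low cells, at 799 against 311 CPM (2.57, 2.14 to 3.11) and 761 against 344 CPM (2.21, 1.91 to 2.56). Isg15 was at 0.621 and 0.662. Of 15 genes of MHC class I presentation none was past 2-fold either way (medians -0.27 and -0.21), with H2-K1 at 0.695 and 0.701 and B2m at 1.02 and 1.13. Of 14 S100, annexin and galectin genes 2 were higher, S100a4 and S100a6 (2.74 and 2.38). Of 13 cell cycle genes 2 were higher (Birc5 and Ccnb2, in 10 to 14 high cells each), and the medians differed in sign (0.29 and -0.22); cells with 2 or more Top2a UMIs had been removed from both classes.

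**Figure D3:**
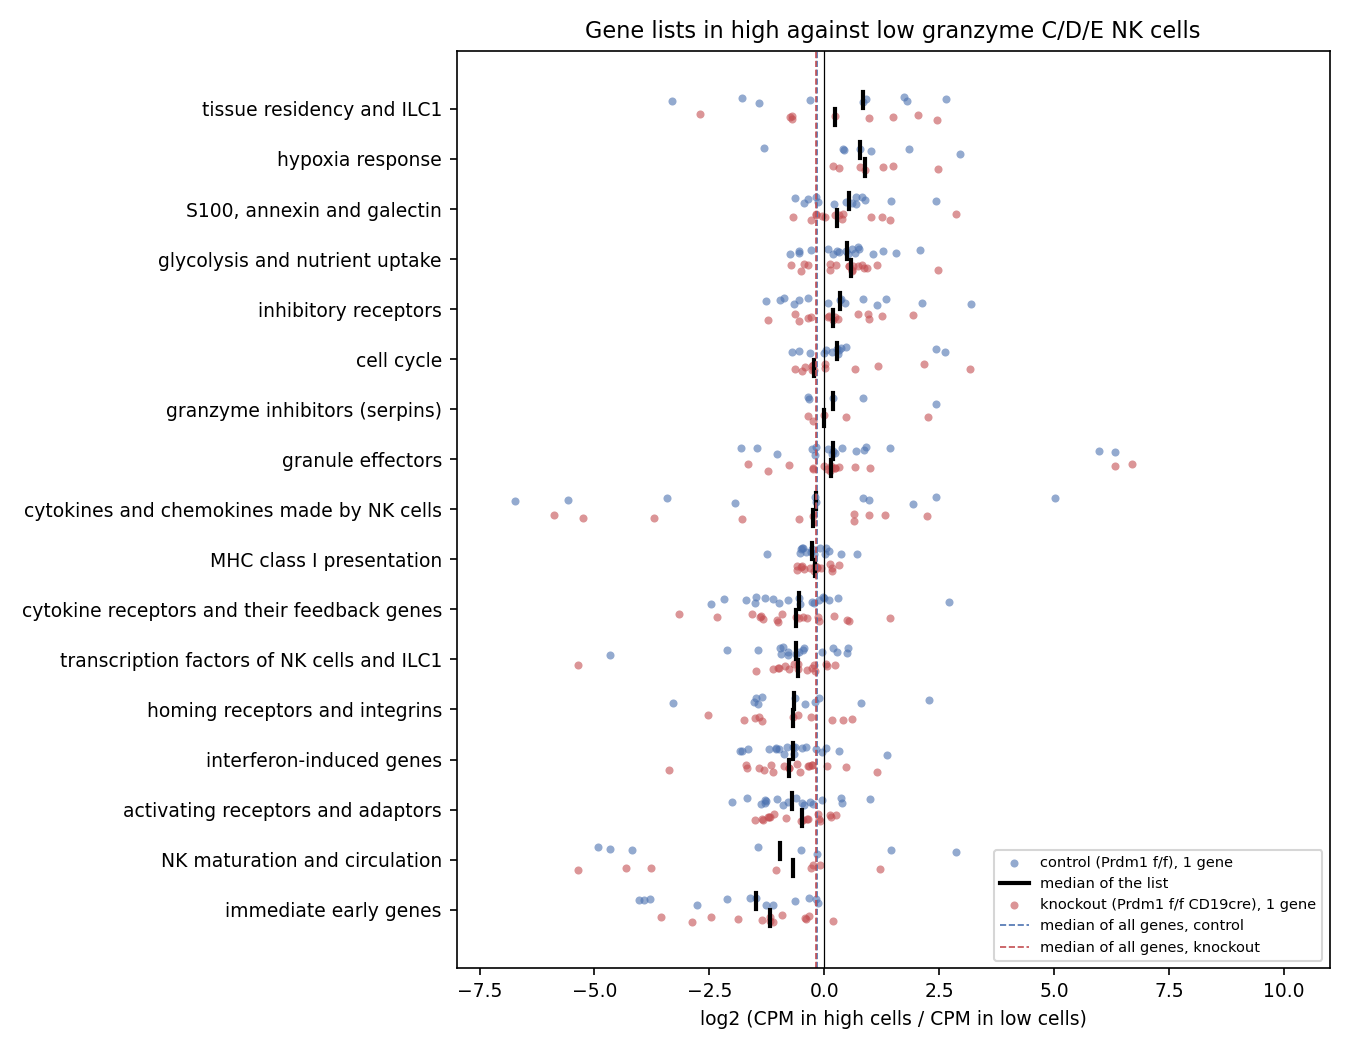
Each point is 1 measured gene of a list, placed by its log2 ratio of CPM in high over low cells, in control (blue) and knockout (red); black bars are list medians and dashed lines the medians over all genes (-0.16 and -0.18). Lists are ordered by their control median, from immediate early genes (-1.49 in control, -1.18 in knockout) up to tissue residency and ILC1 genes (0.84 and 0.23); in knockout the highest median is that of hypoxia response genes (0.89).

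The remaining genes of the low ranking were Cox6a2, a cytochrome oxidase subunit gene (0 and 1 UMIs against 25 and 27, in only 4 and 2 low cells), and As3mt, a methyltransferase gene (5 and 10 against 29 and 38). Without the top cell of each class the control bound of Cox6a2 was 0.227 in place of 0.0464.

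Some of the differences were also seen in a narrower range of depth, in which high cells were still deeper than low cells. Of the genes that could still be measured there, 21 of 33 higher and 49 of 138 lower genes stayed past 2-fold in both libraries. With cells of 4000 to 15000 UMIs only, 34 control and 79 knockout high cells (median 10204 and 9356 UMIs) stood beside 53 and 71 low cells (5942 and 5855 UMIs). There Ccl5 was at 0.049 and 0.025, Klf2 at 0.116 and 0.031, Itgam at 0.031 and 0.128, Cd7 at 0.149 and 0.263, and Gzma at 0.458 and 0.320. Of the higher genes, Spp1 was at 31.1 and 5.35, Ifitm2 at 7.39 and 27.8, Lag3 at 7.17 and 3.22, Itga1 at 3.48 and 6.77, and Ly6a at 2.83 and 2.25. Most of the measurable lower genes were thus not past 2-fold in both libraries here. Called genes that were closer to 1 than over all cells included Jun (0.772 and 0.644), Il18rap (0.878 and 0.631), Klra4 (0.699 and 0.555), Cd27 (0.589 and 0.577) and Pgk1 (1.63 and 1.91). Others were past 2-fold in 1 library only, such as Itgb7 (0.609 and 0.473) and Ifit3 (0.773 and 0.121). Some ranked genes had too few UMIs left in control to compare, such as Myo10 (3 against 1 UMI) and Alox5 (2 against 0).

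Cells were also divided by the amount of granzyme C/D/E, in 6 ranges of summed UMIs that held 11 to 98 cells each. Ccl5 was lower already in the first range past the threshold: it was at 10975 and 11283 CPM in cells with 0, at 2629 and 6360 CPM with 1 to 4, at 500 and 631 CPM with 5 to 49, and at 2.0 and 139 CPM with 500 or more. Klf2 went the same way, from 375 and 381 CPM at 0 to 63.7 and 24.8 CPM at 5 to 49 UMIs. Gzma was at 10064 and 11369 CPM at 0 and at 4062 and 4073 CPM at 5 to 49, with 2118 and 3895 CPM at 500 or more. Klrb1c was lowest in the last range: it went from 651 and 707 CPM at 0 to 309 and 464 CPM at 5 to 49 and 60.7 and 76.0 CPM at 500 or more. Ncr1 ranged only from 501 to 774 CPM over all ranges and both libraries.

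Other genes varied among the high cells. S100a4 was at 132 and 80.5 CPM at 5 to 49 summed UMIs and at 615 and 574 CPM at 500 or more, and Ifitm2 at 88.2 and 30.9 against 1272 and 854 CPM. Itga1 had a UMI in 3 of 19 control and 9 of 24 knockout cells at 5 to 49 and in 17 of 20 and 17 of 22 at 500 or more, with 44.1 and 55.7 against 106 and 123 CPM. Klrg1 was at 73.3 and 69.1 CPM in cells with 0, at 19.6 and 6.2 CPM at 5 to 49 and at 237 and 139 CPM at 500 or more, so it was lower in the first range of high cells than in low cells with none. The median depth rose with the ranges, from 7980 and 6403 UMIs at 5 to 49 to 25264 and 16661 UMIs at 500 or more, and its part in these levels was not tested. Several ranges held under 20 cells (11, 19, 11 and 15 in control).

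**Figure D4:**
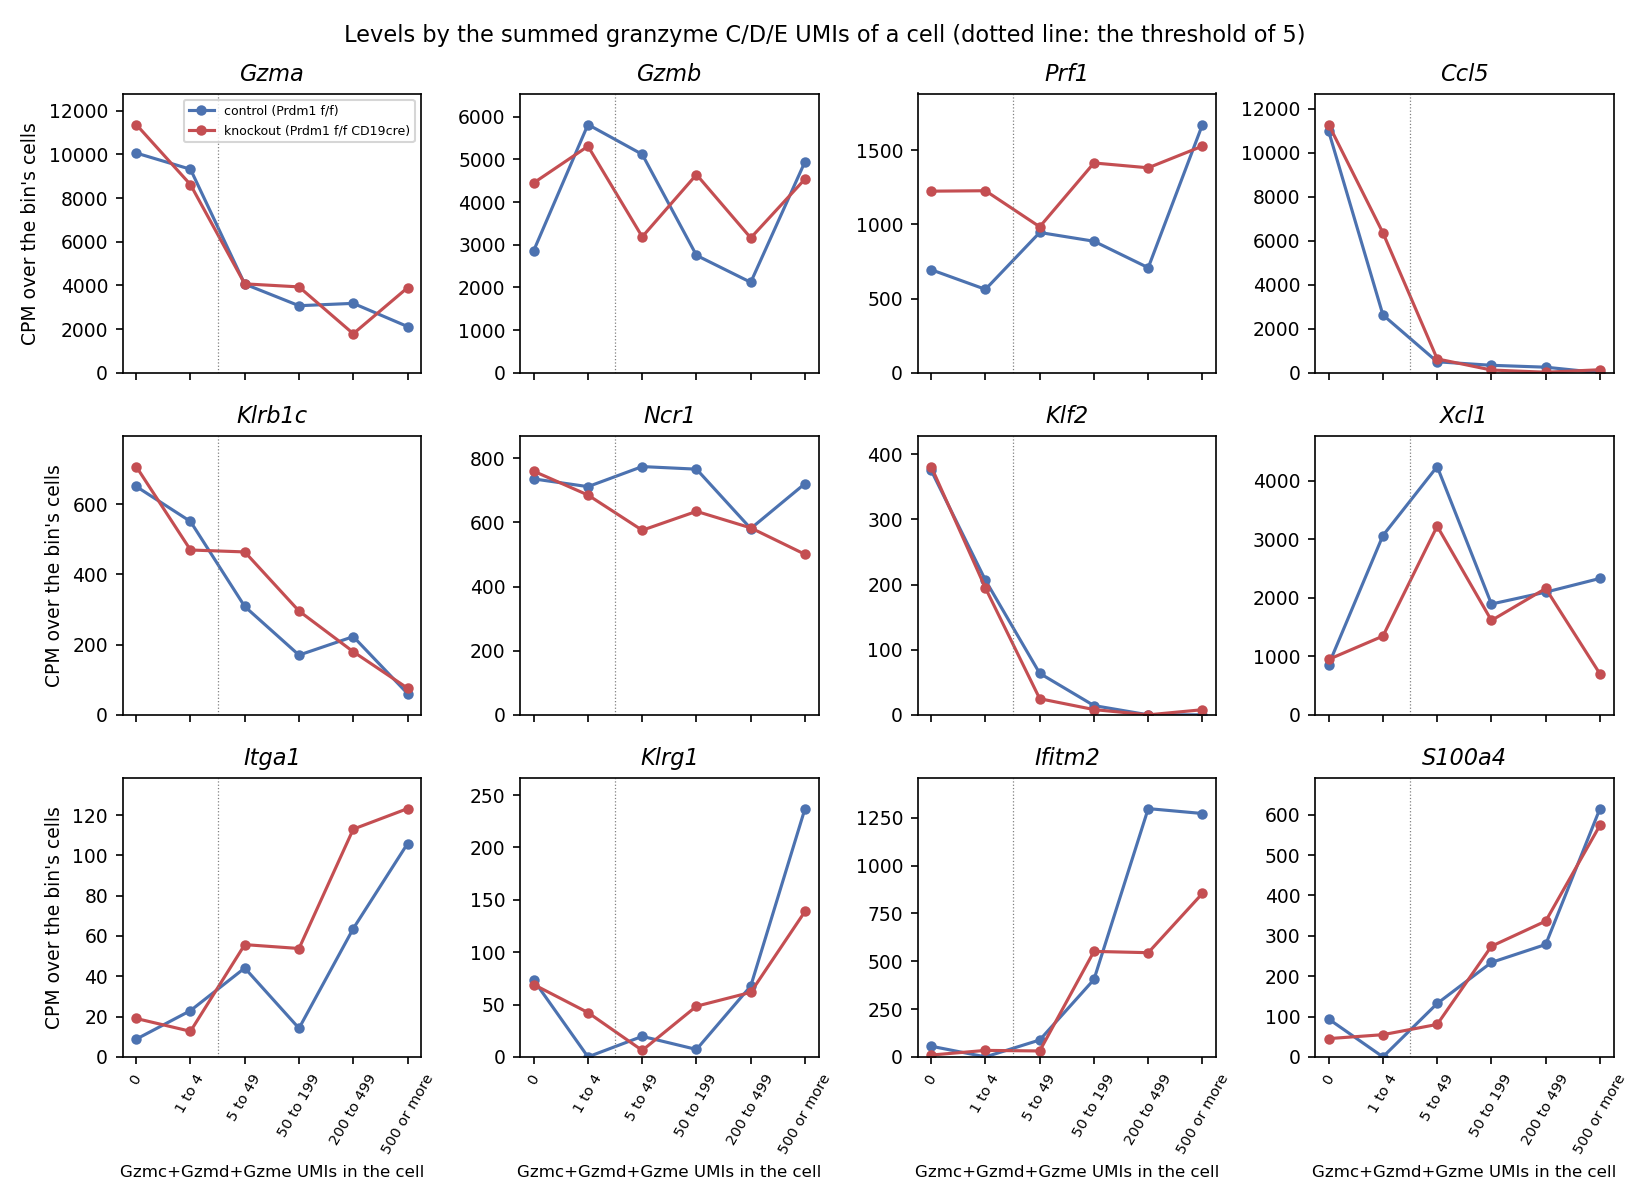
Level in CPM (y axes, from 0) of 12 genes in NK cells grouped by their summed Gzmc, Gzmd and Gzme UMIs (x axis, 6 ranges), in control (blue) and knockout (red); the dotted line is the threshold of 5 and each point pools the cells of its range, with no error bar. Ccl5 and Klf2 are low from the range of 5 to 49 on, whereas S100a4 and Klrg1 are highest at 500 or more and Ifitm2 is higher from 50 on than below.

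Cells with Gzmd or Gzme also differed from other high cells in genes outside the granzyme cluster. Alox5 had 36 and 34 UMIs in cells with either and 1 and 7 in cells with neither. Klrg1 was at 216 against 30.8 CPM in control (7.03, 4.17 to 12.7) and 106 against 40.6 CPM in knockout (2.60, 1.64 to 4.25). Itga1 was at 2.70 and 4.56 times, Myo10 at 5.48 and 3.78 times, Fcrl6 at 2.04 and 2.78 times and Serpinb6a at 2.39 and 2.25 times the level of cells with neither. Serpinb9b, a serpin gene that was not past 2-fold between high and low cells, stood at 271 against 104 CPM (2.61, 1.90 to 3.62) and 366 against 137 CPM (2.67, 2.08 to 3.44). In the other direction, Cxcr3 had 6 and 3 UMIs in cells with Gzmd or Gzme and 15 and 21 in cells with neither.

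By genotype, the high cells were compared with 1 library on each side. The Prdm1 gene itself, which encodes Blimp-1, had 9 UMIs in control and 8 in knockout high cells, and 4 and 8 in low cells, too few to compare, and they do not show whether the floxed part was deleted. Of 4859 genes with at least 50 UMIs in high cells, 34 (0.7%) were at least 2-fold higher in knockout and 20 (0.412%) at most 0.5-fold. The granzymes of the rule were near even, and as part of the rule they are given as values: Gzmc was at 26358 and 24881 CPM, Gzmd at 2826 and 2908 CPM and Gzme at 1664 and 1682 CPM in control and knockout.

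Genes higher in knockout high cells were Ier3, an early stress-response gene (13.6 in control and 41.4 CPM in knockout, 3.05, 1.70 to 5.83), Chd3, a chromatin remodeller gene (11.7 and 34.5 CPM, 2.94, 1.56 to 5.93), Hbp1, a transcriptional repressor gene (17.2 and 42.9 CPM, 2.50, 1.46 to 4.46), Rcor1, a corepressor gene (2.33, 1.44 to 3.89), Tmprss6, a membrane protease gene (2.21), Cdkn1a, which encodes the cell cycle inhibitor p21 (2.42, 1.43 to 4.25), and Ugt1a7c, a glucuronosyltransferase gene that shares exons with its neighbours (2.35). In low cells Cdkn1a had nearly the same ratio (3.02, 1.38 to 7.50), whereas Chd3 (0.839, 0.457 to 1.56) and Hbp1 (0.559, 0.281 to 1.10) were not higher; the difference between classes was not tested. Penk, the proenkephalin gene, had 19 and 95 UMIs, but in 2 cells of each library. With cells of 4000 to 15000 UMIs only, Chd3 had 9 UMIs in 34 control and 29 in 79 knockout high cells. There Ier3 had 5 and 45, Hbp1 5 and 34, Rcor1 10 and 42, Tmprss6 8 and 42, Cdkn1a 9 and 49, Ugt1a7c 7 and 34, and Penk 0 and 0. The part of depth in the ratios of these genes was not tested.

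Of the 8 genes ranked lowest in knockout high cells, Ifit3 and Ifitm3 are interferon-induced. Ifit3 had 50 UMIs in 10 control cells and 8 in 7 knockout cells (0.136, 0.056 to 0.289), and Ifitm3 was at 595 and 271 CPM (0.456, 0.399 to 0.519). Both were also lower in knockout low cells (0.409, 0.271 to 0.611, and 0.190, 0.120 to 0.293), but the Ifitm3 value in low cells moved to 0.396 without the top cell of each library. Over the 18 measured interferon-induced genes the median log2 ratio was -0.16, with 1 gene past 2-fold and 6 over 1, against 2529 of 4859 over all genes. Fdps, of sterol and isoprenoid synthesis, was at 106 and 42.2 CPM (0.399, 0.284 to 0.554) and Hmgcs1, of the same pathway, at 57.8 and 25.3 CPM (0.437, 0.278 to 0.676). With cells of 4000 to 15000 UMIs only, Fdps had 12 UMIs in 34 control and 23 in 79 knockout high cells, and Hmgcs1 had 8 and 18. The part of depth in the ratios of Fdps and Hmgcs1 was not tested. Mef2c, a transcription factor gene (0.303, 0.156 to 0.558), the ligand gene Tnfsf8 (0.387, 0.234 to 0.626), Egr1 (0.417, 0.255 to 0.666) and Ccl1 (251 and 28 UMIs in 5 and 6 cells) completed the ranking. Egr1 (0.346) and Fdps (0.369) had like ratios in low cells, so these differences were not seen in high cells only. In the same 34 control and 79 knockout high cells of 4000 to 15000 UMIs, Ifitm3 had 121 and 207 UMIs and Ifit3 40 and 7. There Mef2c had 8 and 7, Tnfsf8 22 and 20, Egr1 29 and 19, and Ccl1 0 and 6. The part of depth in the ratios of these genes was not tested either.

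No fixed list moved by more than 2-fold in its median between genotypes in high cells. Among lists with at least 5 measured genes, the largest median sizes (log2) were 0.43 for NK maturation and circulation (5 genes, none past 2-fold), 0.36 for inhibitory receptors (15 genes, none past 2-fold) and for hypoxia response (6 genes, none past 2-fold), and -0.29 for cell cycle genes (13 genes, none past 2-fold, 3 over 1). Granule effectors stood at 0.11 (17 genes, 13 over 1, none past 2-fold). The median over all 4859 genes was 0.02. With at least 250 UMIs asked of a gene in place of 50, 0 genes were at least 2-fold higher and 2 at most 0.5-fold, so the genotype calls rested on genes with few UMIs.

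**Figure D5:**
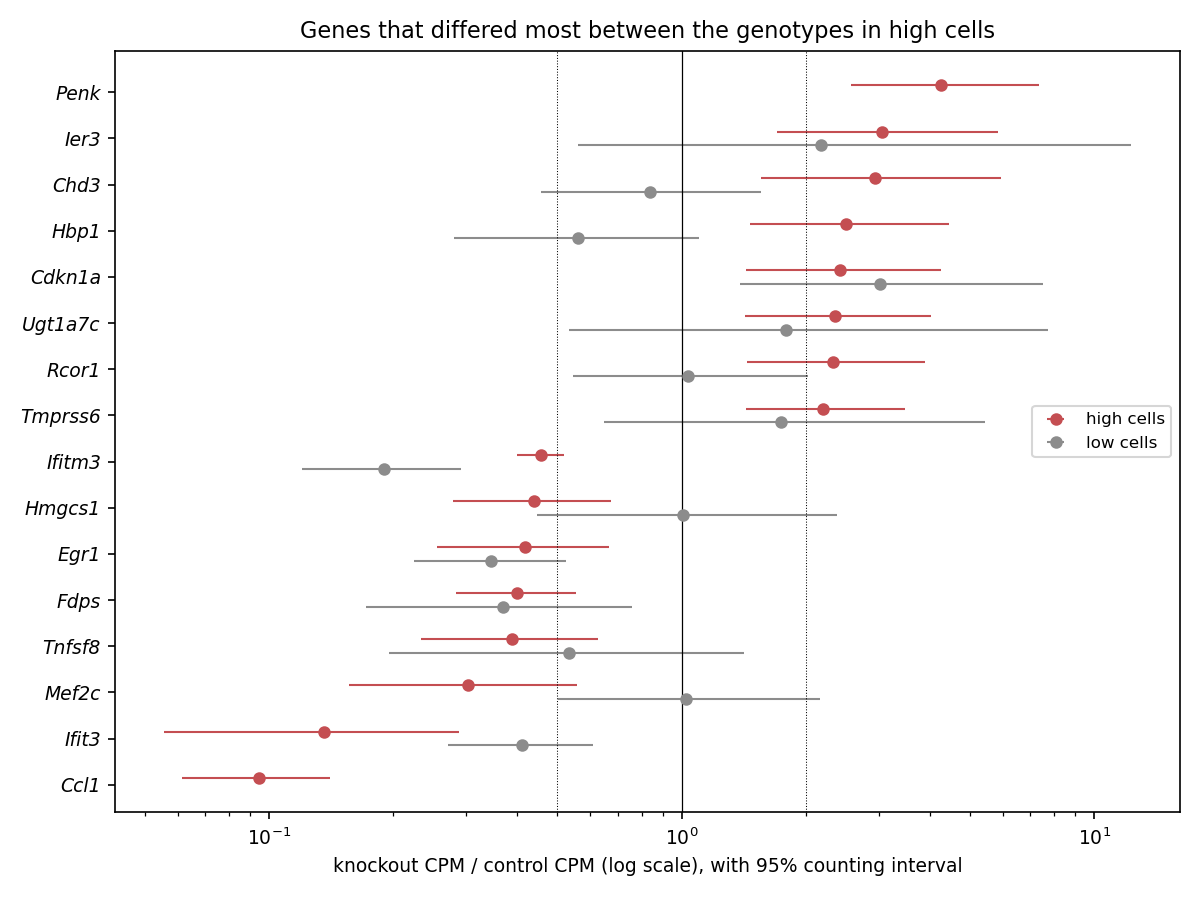
Ratio of knockout over control CPM (x axis, log scale) for the 8 genes ranked highest and the 8 ranked lowest in high cells (red), with the same ratio in low cells (grey) where it can be computed; bars are 95% intervals for counting error and dotted lines mark 2-fold. Cdkn1a, Egr1, Fdps, Ifit3 and Ifitm3 lie on the same side of 1 in both classes with intervals off 1, whereas the low-cell intervals of Chd3, Hbp1, Mef2c and Hmgcs1 cross 1.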

How the data were processed

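The series holds 1 gene expression library and 1 V(D)J library of B cell receptors for each genotype. Per the submitters' processing notes, Cell Ranger 6.0.0 and the GRCm38 (mm10) build were used; other settings are not given in the sources used here. The deposited matrices hold raw UMI counts per gene and barcode for 32285 genes, and the authors' V(D)J tables hold UMI counts per contig, used only to look for receptor contigs on members. Sequencing depth was targeted at 24000 reads per cell.

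UMIs were summed over the cells of a class and library and expressed as CPM of that class (Python 3.11.15, scipy 1.17.1, pandas 2.3.3). Ratios carry exact 95% intervals from the binomial split of the UMIs, and shares carry Clopper-Pearson intervals; both cover counting error only. A sum of 0 was set to 3 UMIs, which gives a bound. A gene was called when its ratio was at least 2 or at most 0.5 in both libraries. Doublets were called with Scrublet in scanpy 1.11.5, which marked 1 and 3 barcodes. The ratios were checked on simulated counts. Alternatives changed the granzyme sum, the NK markers, doublets and other-lineage cells, the totals, the UMI minimum and the depth of the cells, in part by thinning each cell to 1500 UMIs; the depth window, the settings without Cd3g or Itga1 cells and the low-cell genotype ratios without the top cell were chosen after seeing the data. Upstream sequences were aligned with Biopython 1.88.

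Named genes were the 16 higher and 12 lower genes with the interval bound farthest from 1 in the weaker library, 8 higher and 8 lower by genotype, the markers, and members of 18 gene lists with most UMIs or past 2-fold. Immunoglobulin, T cell receptor, mitochondrial, ribosomal and predicted genes were not ranked. The members and lists were chosen with earlier results of these data known. Some genes are not reported here and were left out of the lists, but not of the totals or the counts over all genes.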

Additional observations from a re-analysis of the deposited data

Results flagged for a closer look

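For 8 of the genes reported here the ratio of high over low cells lay on opposite sides of 1 in the 2 libraries, with both counting intervals off 1; the difference between the libraries was not tested. Among these, 3 were lower in control and higher in knockout high cells by less than 2-fold either way: Cdk4, a cell cycle kinase gene (0.714 and 1.35), Ctss, which encodes cathepsin S (0.588 and 1.37), and Ifi27l2a, an interferon-induced gene (0.639 and 1.38). Lars2, which encodes a mitochondrial leucyl-tRNA synthetase, was at 0.461 and 1.20, and Mrgbp, a chromatin factor gene, at 0.479 and 2.58. In the other direction stood Gzmb (1.17 and 0.839), Irf8, an interferon regulatory factor gene (1.13 and 0.865), and Pds5a, a cohesin regulator gene (2.47 and 0.615). With cells of 4000 to 15000 UMIs only, Gzmb was under 1 in both libraries (0.926 and 0.880), and the other 7 genes were still on opposite sides of 1. There the counting intervals of Mrgbp in both libraries, and of Pds5a, Cdk4 and Ifi27l2a in control, included 1. Those of Ctss, Lars2 and Irf8 stayed off 1 in both libraries, with an upper bound of 0.99985 for Irf8 in knockout. The macrophage or monocyte list was at 325 CPM in control low cells, where 1 cell held 135 of its 139 UMIs, and at 42.7 CPM in knockout low cells. Its part in the Ctss ratios was not tested.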

How the results depend on the processing

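Each library is the only one of its genotype, so no library could be left out. No paired analysis was possible because each genotype has 1 library, and the shared number 1 marks no pair. The counts of genes higher and lower in high cells and higher and lower in knockout (104, 183, 34 and 20) were 17, 52, 19 and 3 with cells thinned to 1500 UMIs, 194, 429, 725 and 627 with no UMI minimum, and 27, 47, 0 and 2 with 5 times the minimum; fewer or more genes could be measured in these. Averaging each cell's CPM gave 174 genes higher in knockout. Added after the data were seen, cells of 4000 to 15000 UMIs gave 25 higher and 58 lower genes and 53 higher in knockout, and leaving out Itga1 cells gave 28 higher genes and 19 higher in knockout; the cause was not tested. Of the 34 higher and 20 lower genes by genotype, 0 and 1 recurred when thinned, 3 and 1 at 4000 to 15000 UMIs, and 1 and 2 without Itga1 cells. The share of high cells was 38.6% in control when thinned, and 39.1% and 52.7% in control and knockout at 4000 to 15000 UMIs. The other settings, which were sums of 3 or 10, a sum per 10000 UMIs, both NK markers, no doublets, no other-lineage UMIs, no Cd3g, at most 5% mitochondrial UMIs and totals without granzymes, kept every count within 1.5 times. The genes themselves changed more: of the 34 and 20 genotype genes, 7 and 6 recurred with both NK markers. Without other-lineage UMIs 18 and 16 recurred, and without Cd3g 21 and 19. The rest of these settings kept 29 to 34 and 17 to 20. Of the genes past 2-fold in both libraries, 3 ratios changed side: Il2ra in control (0.794) and Ugt1a7c in knockout (0.976) when thinned, and Lta in control (0.820) at 4000 to 15000 UMIs. Among named genes not past 2-fold in both libraries, 35 ratios crossed 1 when thinned and 31 at 4000 to 15000 UMIs, such as Eomes in control (1.08) and Klrg1 in knockout (0.616) when thinned, and Klrg1 (0.559), Gzmb (0.926) and Isg15 (1.06) in control at 4000 to 15000 UMIs. Of the named ratios, 28 moved and 348 did not without the top cell, and 147 moved and 194 did not at 4000 to 15000 UMIs.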
